A study of Mus musculus with 8 samples.

Results

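The G1 cyclins, the kinases they activate and the inhibitors that hold them back were examined in mouse embryonic stem cells (ESCs) with and without the zinc finger transcription factor Zfp281. The 10 genes Ccnd1, Ccnd2, Ccnd3, Ccne1, Ccne2, Cdk4, Cdk6, Cdkn1a, Cdkn1b and Cdkn2a were chosen by name from their place in the cell cycle, out of 18193 genes measured, and were covered by 27 of 45037 probe sets. They, and the gene lists read beside them, were chosen with earlier results of these data known, so their counts are no independent support. Lines 3, 3.2 and 3.3 were wild-type, lines 5 and 3.1 heterozygous and lines 7, 3.34 and 3.38 null, 8 ESC lines in all, and RNA of each was hybridised to 1 Affymetrix mouse genome array. All lines were derived by outgrowth of blastocysts from matings of Zfp281 heterozygous mice, grown on primary mouse embryonic fibroblasts with serum and LIF, and given no other treatment. The targeted allele, made in CJ7 ESCs, had both exons of Zfp281 replaced by a floxed neomycin resistance cassette. The null allele exists with and without this cassette, and the sources used here do not say which form each line carries.

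A cell leaves G1 when D-type cyclins (Ccnd1, Ccnd2 and Ccnd3) bind Cdk4 or Cdk6 and phosphorylate the retinoblastoma protein, which releases E2F transcription factors. E-type cyclins (Ccne1 and Ccne2), themselves E2F targets, then activate Cdk2 and start DNA replication, while Cdkn1a (p21, a p53 target) and Cdkn1b (p27) bind cyclin-kinase complexes and Cdkn2a encodes the Cdk4 and Cdk6 inhibitor p16 and, from another reading frame, ARF, which stabilizes p53. Mouse ESCs are known for a short G1 phase, high cyclin E activity and low levels of D-type cyclins and inhibitors.

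All values are log2 RMA values of single probe sets, and each line was 1 array, so that the spread within a genotype holds line-to-line and technical differences together. Since a probe set's brightness depends on its probes, levels were compared between lines and never between probe sets. Zfp281 itself fell in null ESCs, from 7.18 ± 0.66 (SD, n = 3) in wild-type to 4.64 ± 0.87 (SD, n = 3), by 2.54 on the log2 scale (limma adjusted p = 0.0467), and was 6.83 ± 0.20 (SD, n = 2) in heterozygous ESCs, on probe set 1426377_at, where null lines 3.34 and 3.38 (5.06 and 5.23) were still called present. Probe set 1452045_at fell by 4.61 (limma adjusted p = 0.00186) in null ESCs, and there both heterozygous lines also lay below all wild-type lines (−0.97, 0.989). On it null lines 7 and 3.34 (3.39 and 2.96) were still called present. Of 12 ESC markers, 11 were called present by the array software in all 8 lines. In the null lines 10 averaged higher than in the wild-type lines, against 46.8% of all genes. At an unadjusted p under 0.05 (limma) there were 8 of 12, against 16.4% of all genes. In 7 of 12 every null line lay above every wild-type line, as in 2027 of 18193 genes. Only Dppa5a passed the test (1.23, limma adjusted p = 0.0301), where 1.13% of all genes passed. Tfcp2l1 stood at 0.84 (limma adjusted p = 0.0609) and Pou5f1 at 1.29 (0.0715). The share of probe sets called present lay between 28.4% and 35.3%, lowest in heterozygous line 3.1 and wild-type line 3.2 (30.4%). The arrays also carry probe sets at both ends of the Gapdh and beta-actin transcripts, and the 3′ minus 5′ difference, which grows with RNA degradation or incomplete labelling, averaged 4.61 in wild-type ESCs (SD 0.34, n = 3), 4.64 in heterozygous ESCs (SD 0.22, n = 2) and 3.30 in null ESCs (SD 0.55, n = 3). The 3 null lines lay below all 5 other lines, a difference from wild-type of −1.31 on the log2 scale (p = 0.1 by a two-sided exact permutation test, which 3 against 3 lines cannot go below).

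The promoters of the members whose null and wild-type lines did not overlap on a probe set called present are shown here, with the capitals marking the motifs that were searched on both strands: a G-rich run (GGGGAGGG), since Zfp281 is known to bind G-rich DNA, a GC box (GGGCGG), an E2F motif (TTTNNCGC) and an E-box (CACGTG). Each is the 250 bases before a RefSeq transcription start, in the orientation of the gene, on the GRCm38.p6 assembly. Starts were listed for 7 of the 10 members, and none for Ccnd1, Ccnd2 and Ccne2. Of 32851 promoters of this length, 9.69% held the G-rich run, 32.7% a GC box, 4.28% the E2F motif and 6.02% an E-box. Ccnd3 has promoters at chr17:47504801-47505050 (plus strand) and chr17:47593217-47593466 (plus strand).
Ccnd3, first promoter: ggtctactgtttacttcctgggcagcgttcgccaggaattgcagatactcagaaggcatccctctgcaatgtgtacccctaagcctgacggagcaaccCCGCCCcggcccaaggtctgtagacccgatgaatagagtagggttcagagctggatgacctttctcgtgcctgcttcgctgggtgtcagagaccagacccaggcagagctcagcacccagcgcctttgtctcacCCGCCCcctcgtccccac
Ccnd3, second promoter: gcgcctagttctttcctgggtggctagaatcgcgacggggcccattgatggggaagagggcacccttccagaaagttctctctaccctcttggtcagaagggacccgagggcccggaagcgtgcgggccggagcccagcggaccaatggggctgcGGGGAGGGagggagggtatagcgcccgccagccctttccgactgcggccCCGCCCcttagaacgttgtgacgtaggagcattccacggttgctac
The first held 2 GC boxes, and the second held 1 GC box and, 95 to 88 bases before the start, the G-rich run. The Ccne1 promoter (chr7:38107491-38107740, minus strand), 76% G and C where the median of all promoters was 52.4%, held 4 GC boxes.
Ccne1: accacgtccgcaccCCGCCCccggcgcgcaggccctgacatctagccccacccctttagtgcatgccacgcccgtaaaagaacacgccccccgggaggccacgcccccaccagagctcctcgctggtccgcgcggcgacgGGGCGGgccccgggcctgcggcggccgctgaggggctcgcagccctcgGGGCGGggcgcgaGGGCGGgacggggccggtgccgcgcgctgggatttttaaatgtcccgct
The Cdk4 promoter (chr10:127063285-127063534, plus strand) held 4 E-boxes and 1 GC box, and that of Cdkn1b (chr6:134920151-134920400, plus strand) 1 GC box.
Cdk4: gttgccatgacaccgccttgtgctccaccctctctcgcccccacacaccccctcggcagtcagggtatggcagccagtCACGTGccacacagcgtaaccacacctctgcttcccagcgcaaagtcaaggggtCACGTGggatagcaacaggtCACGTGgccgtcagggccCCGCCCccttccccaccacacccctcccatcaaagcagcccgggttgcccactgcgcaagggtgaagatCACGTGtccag
Cdkn1b: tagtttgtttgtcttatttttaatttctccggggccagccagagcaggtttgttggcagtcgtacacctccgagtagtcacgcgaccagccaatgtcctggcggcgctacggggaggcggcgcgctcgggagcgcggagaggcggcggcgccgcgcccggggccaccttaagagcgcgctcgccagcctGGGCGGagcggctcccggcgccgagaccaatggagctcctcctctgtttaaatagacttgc
None of these 5 windows held the letters of the E2F motif. The G-rich run was not particular to Ccnd3 among the members. Starts of members not shown also held it, with 1 match for Cdk6, 3 for Cdkn1a and 1 for Cdkn2a. The null and wild-type lines of these members overlapped. A match describes the sequence only, and binding was not measured on these arrays.

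To ask whether loss of Zfp281 changed this machinery, null ESCs were first compared with wild-type ESCs. Of the 10 members, 1 rose (Ccnd3), none fell and 9 did not pass limma at an adjusted p under 0.05, where 1.13% of all genes passed. At an unadjusted p under 0.05 there were 3 of 10 members (Ccnd3, Cdk4 and Cdkn1b), against 16.4% of all genes. Ccnd3 was the only member past 2-fold, against 2.47% of all genes. In 2 of 10 members the null and wild-type lines did not overlap, Ccnd3 on the high side and Cdkn1b on the low side, against 22.4% of all genes. The median log2 fold change was 0.10 over the members and −0.01 over all genes. Members were detected by at least 1 probe set in all 8 lines in 7 cases (Ccnd1, Ccnd2, Ccne1, Ccne2, Cdk4, Cdkn1a and Cdkn1b). Since RNA came from whole cultures, fewer cells of a type and less RNA per cell cannot be told apart.

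**Figure D1:**
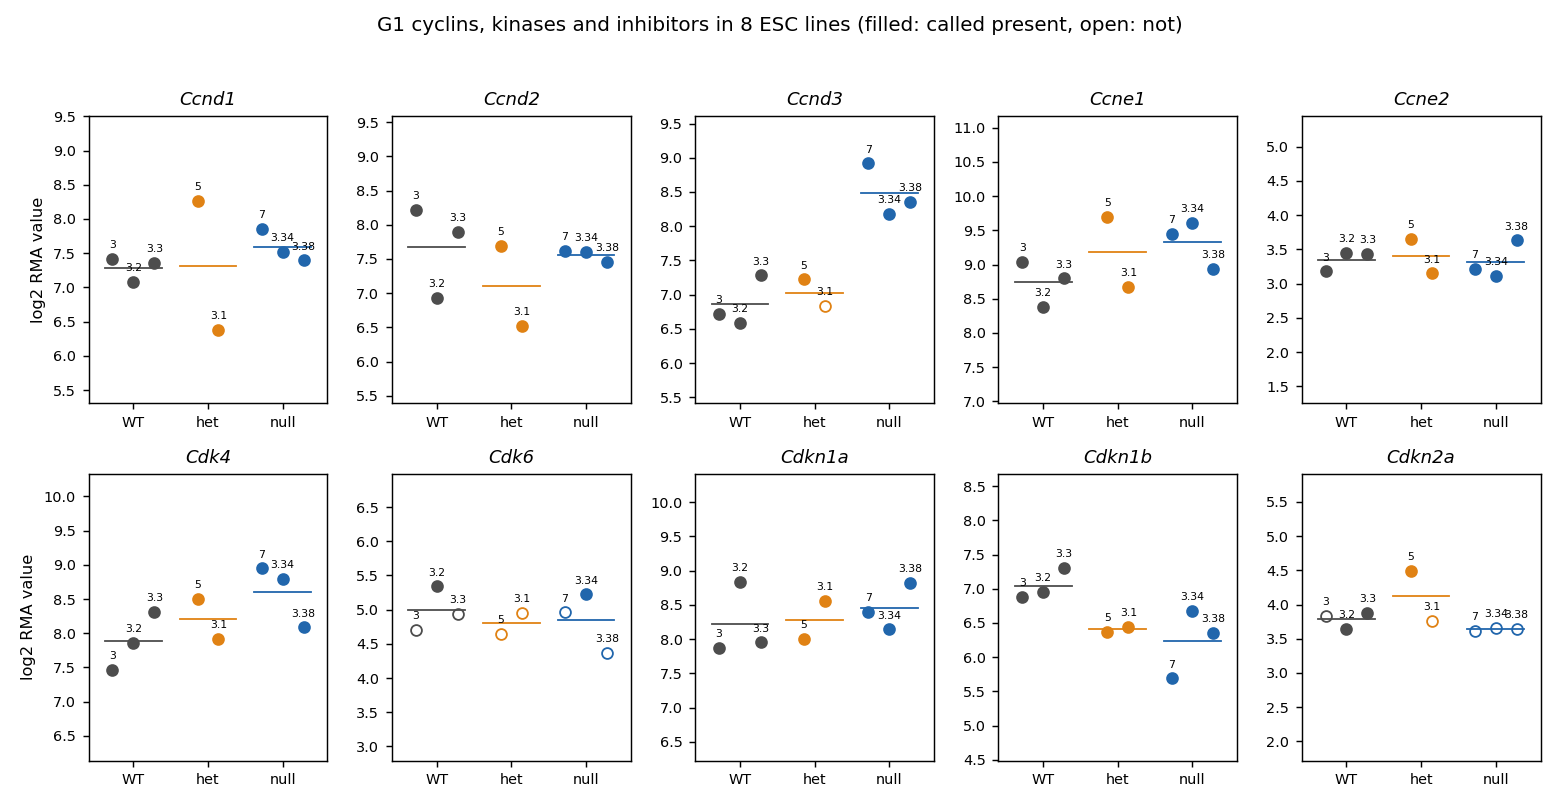
Log2 RMA value (vertical axis) of each member in each ESC line, by genotype (WT, wild-type; het, heterozygous), with the mean of each genotype as a line, filled points called present and every panel spanning the same number of log2 units. The null lines of Ccnd3 lie between 8.18 and 8.92, above the 7.28 of the highest wild-type line, and those of Cdkn1b at 6.67 or lower, below all wild-type lines.

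Ccnd3, the D-type cyclin best known from lymphoid and muscle cells, was the member that rose. On its brightest probe set (1415907_at) wild-type lines 3, 3.2 and 3.3 gave 6.72, 6.59 and 7.28. Heterozygous line 5 gave 7.22, and line 3.1 gave 6.84 with no present call. The null values were 8.92 for line 7, 8.18 for line 3.34 and 8.35 for line 3.38. All 3 null lines thus stood above all 5 others, and the heterozygous lines fell within the wild-type range. Null exceeded wild-type ESCs by 1.62 on the log2 scale, or 3.07-fold (standard error 0.24, 95% confidence interval 1.07 to 2.17, limma adjusted p = 0.0370), the gene ranking 60 of 18193 by p. The other Ccnd3 probe sets, 1438805_at (2.88 to 3.21) and 1444323_at (6.03 to 6.40), were called present in no line and differed by −0.0016 and 0.078. Averaging the 3 probe sets gave 0.57 (limma adjusted p = 0.0527).

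The rise of Ccnd3 moved with the 3′ minus 5′ difference. This difference was 2.68 in null line 7, which had the highest Ccnd3 value, 3.51 in line 3.38 and 3.71 in line 3.34, and Ccnd3 was lower in that order. With the difference as a covariate the Ccnd3 change was 0.54 (standard error 0.24, limma adjusted p = 1.00), no gene of 18193 passed, Zfp281 included (−0.79), and the share of all genes at an unadjusted p under 0.05 went from 16.4% to 2.54%. Because the covariate separates null from wild-type lines, genotype and RNA quality cannot be told apart here. The call was also lost with the array software's signal values (1.31, limma adjusted p = 0.0617), and without null line 7 (1.40, 0.129), wild-type line 3 (1.55, 0.129) or wild-type line 3.2 (1.48, 0.100). Null line 7 and wild-type line 3 were a pair that shared a litter, as were null line 3.38 and wild-type line 3.3. Ccnd3 was higher in the null line by 2.20 in the first pair and by 1.07 in the second, and over these 4 arrays with the litter as a replicate block the change of 1.64 did not pass (limma adjusted p = 0.0728).

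**Figure D2:**
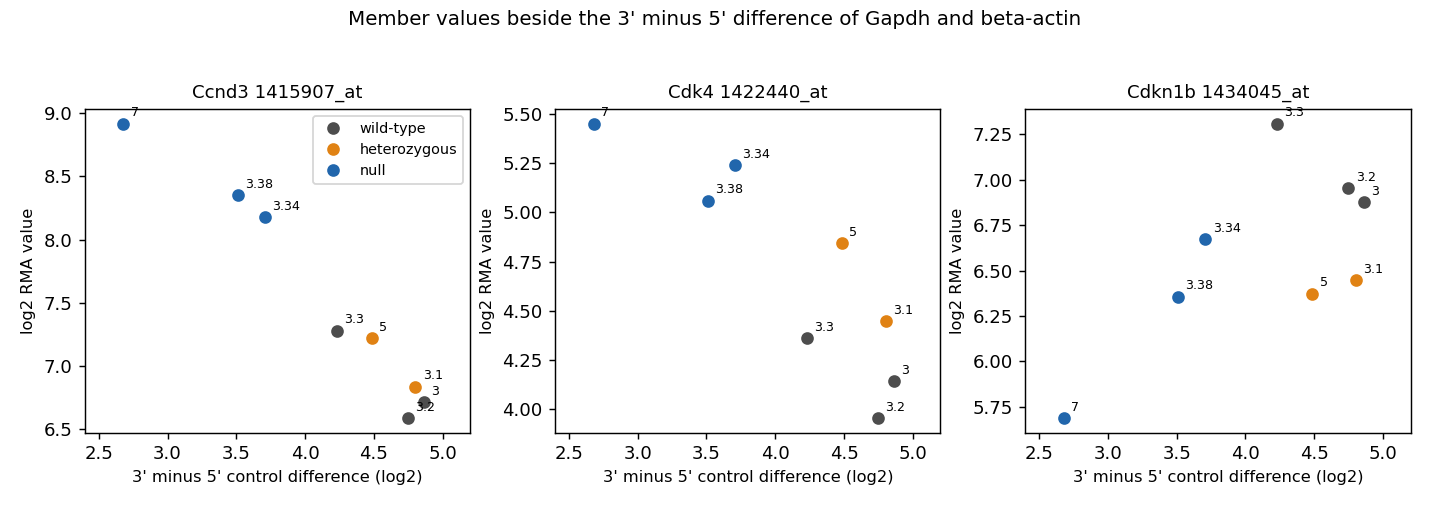
Log2 RMA value (vertical axis) of Ccnd3, of Cdk4 on probe set 1422440_at and of Cdkn1b in each of the 8 lines against the mean 3′ minus 5′ difference of Gapdh and beta-actin (horizontal axis, log2). The null lines, at 3.71 or lower on the horizontal axis, stand apart from the wild-type and heterozygous lines at 4.23 or higher, so that genotype and this difference are confounded.

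Ccnd1, the mitogen-responsive D-type cyclin and a Wnt target, did not pass the test. On probe set 1417420_at the wild-type values were 7.41, 7.08 and 7.36, the null values 7.85, 7.52 and 7.39, and the genotypes overlapped (0.30, 95% confidence interval −0.62 to 1.23, limma adjusted p = 0.816). The heterozygous lines lay on either side, line 5 at 8.26 and line 3.1 at 6.37, so that the widest gap in Ccnd1 was between lines of 1 genotype. Line 3.1 was also the lowest of all lines on the remaining probe sets, at 5.06 (1417419_at) and 5.24 (1448698_at). It had the lowest share of probe sets called present, whose part in this gap was not tested.

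Ccnd2, the D-type cyclin that binds the same kinases, did not pass the test and spread widely among wild-type lines. The wild-type lines ran at 8.22, 6.93 and 7.90 on probe set 1416122_at, the heterozygous lines at 7.70 and 6.52, and the null lines at 7.61, 7.60 and 7.46. The null lines thus lay close together, inside the wild-type range, and the change was −0.12 (95% confidence interval −0.96 to 0.72, limma adjusted p = 0.933). Without wild-type line 3.2 it was −0.50 (limma adjusted p = 0.615), and without lines 3.2 and 3.1 also −0.50 (unadjusted p = 0.00984, limma adjusted p = 0.185). Of its other 6 probe sets, 1416124_at was called present in no line, and the differences lay between −0.27 and 0.24 with none passing. Low values in lines 3.2 and 3.1 again came with the lowest shares of present calls, whose part was not tested.

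Ccne1, which drives Cdk2 at the start of S phase, gave different sizes on its 2 probe sets. On 1441910_x_at, whose suffix marks probes shared with other transcripts, the wild-type lines gave 9.04, 8.38 and 8.80 and the null lines 9.45, 9.61 and 8.93. These overlapped, and the change was 0.59 (95% confidence interval −0.08 to 1.27, limma adjusted p = 0.378), or 0.045 with the array software's signal values (0.965). On 1416492_at the wild-type lines gave 6.81, 6.12 and 6.69, the heterozygous lines 7.24 and 6.42, and the null lines 8.20, 7.81 and 8.06. There every null line stood above every other line, with a difference from wild-type of 1.48, or 2.79-fold (95% confidence interval 0.91 to 2.05), which at a limma adjusted p of 0.0509 over all probe sets did not pass. With the 3′ minus 5′ covariate this difference was 0.93. The mean of both probe sets differed by 1.04 (limma adjusted p = 0.0938).

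Ccne2, the other E-type cyclin, was called present in every line yet sat near the bottom of the array's range on its single probe set (1422535_at). The wild-type values were 3.18, 3.45 and 3.43, the heterozygous values 3.65 and 3.15, and the null values 3.22, 3.11 and 3.63. All genotypes overlapped, and null differed from wild-type by −0.029 (95% confidence interval −0.44 to 0.39, limma adjusted p = 0.971).

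Cdk4, the main partner of D-type cyclins in proliferating cells, likewise depended on the probe set. Its brightest was 1422441_x_at, whose suffix again marks probes shared with other transcripts. There wild-type lines ran from 7.47 to 8.31 and null lines from 8.09 to 8.95. The groups overlapped at a change of 0.73, or 1.66-fold (95% confidence interval 0.07 to 1.39, limma adjusted p = 0.254). Values on 1422440_at were 4.14, 3.95 and 4.36 in the wild-type lines, with no present call in line 3.2. In the heterozygous lines they were 4.84 and 4.45, with no present call in line 3.1, and in the null lines 5.45, 5.24 and 5.06. This probe set rose in null ESCs by 1.10, or 2.14-fold (95% confidence interval 0.73 to 1.46, limma adjusted p = 0.0449 over 45037 probe sets, of which 0.52% passed). The heterozygous lines lay between the null and wild-type lines without overlap (0.49 above wild-type, limma adjusted p = 0.989, and 0.61 below null, 0.200).

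On 1422440_at null line 7 had the smallest 3′ minus 5′ difference (2.68) and the highest value (5.45). Null lines 3.38 (3.51) and 3.34 (3.71) did not keep the order seen for Ccnd3, at 5.06 and 5.24. In the fit that included this measure the rise was 0.59 (limma adjusted p = 1.00). That fit cannot separate genotype from RNA quality, because null and wild-type lines do not overlap in the measure. When single null or wild-type lines were left out the change stayed between 1.00 and 1.20, with a limma adjusted p of 0.0354 to 0.167. The third Cdk4 probe set, 1422439_a_at, differed by 0.54 (limma adjusted p = 0.605), with overlapping lines.

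**Figure D3:**
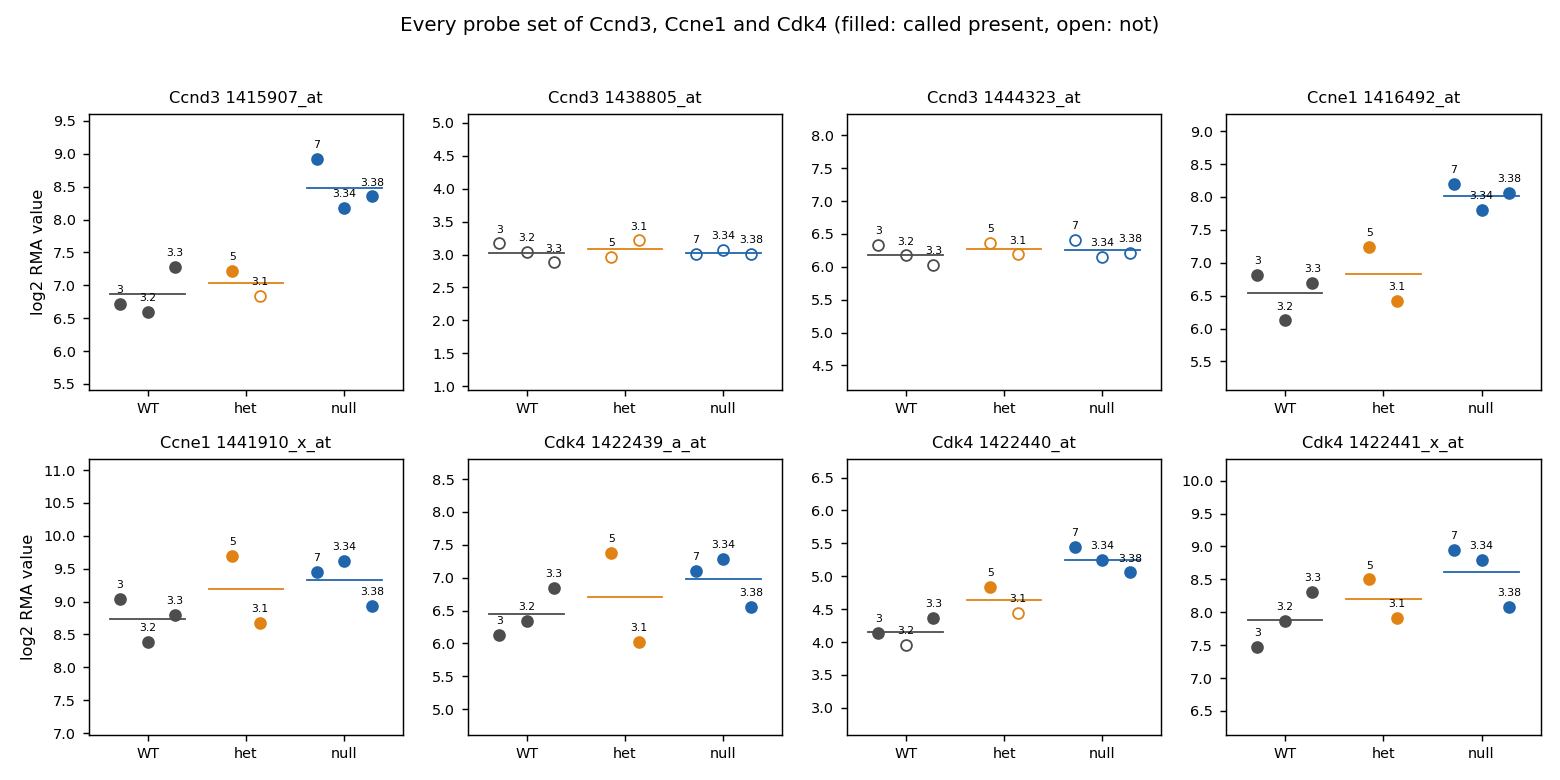
Log2 RMA value (vertical axis) on every probe set of Ccnd3, Ccne1 and Cdk4 in the 8 lines by genotype (WT, wild-type; het, heterozygous), with genotype means as lines and filled points called present. The null lines stand above all others on 1415907_at (Ccnd3), 1416492_at (Ccne1) and 1422440_at (Cdk4), and overlap with wild-type lines on the 5 remaining probe sets.

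Cdk6, the alternative partner of D-type cyclins, was barely detected. It was called present in 2 wild-type lines, no heterozygous line and 1 null line over its 3 probe sets. On the brightest (1435338_at) the wild-type lines gave 4.70, 5.34 and 4.94, the heterozygous lines 4.64 and 4.95, and the null lines 4.96, 5.22 and 4.36. All genotypes overlapped (null against wild-type −0.14, 95% confidence interval −0.70 to 0.41, limma adjusted p = 0.863). On this probe set only wild-type line 3.2 and null line 3.34 were called present, and no fold is given.

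Cdkn1a (p21) was present in all lines on probe set 1424638_at without a difference between genotypes that passed. The wild-type lines had 7.87, 8.84 and 7.95, the heterozygous lines 8.00 and 8.55, and the null lines 8.40, 8.14 and 8.82. Line 3.2 was the highest of all 8 lines, above every null line. Null differed from wild-type by 0.23 (95% confidence interval −0.43 to 0.90, limma adjusted p = 0.797), and probe set 1421679_a_at was called present in no line.

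Cdkn1b (p27), which restrains cyclin E-Cdk2, was the only member whose null lines all lay below the wild-type lines. Wild-type lines 3, 3.2 and 3.3 had 6.88, 6.95 and 7.31 on probe set 1434045_at, null lines 7, 3.34 and 3.38 had 5.69, 6.67 and 6.36, and heterozygous lines 5 and 3.1 had 6.37 and 6.45. The heterozygous values lay inside the null range and below all wild-type values. Null ESCs differed from wild-type by −0.81 (standard error 0.24, 95% confidence interval −1.35 to −0.26), which did not pass limma at an adjusted p of 0.134. The value was −0.53 without null line 7, where Cdkn1b was lowest and the 3′ minus 5′ difference smallest, and −0.21 with that difference as a covariate. It was −1.02 without null line 3.34 (limma adjusted p = 0.0783), −0.37 with the signal values, and −1.19 and −0.95 within the litter pairs of null lines 7 and 3.38. Over the 4 arrays of these pairs with the litter as a replicate block it was −1.07 and did not pass (limma adjusted p = 0.0514). The other probe set, 1419497_at, lay between 2.91 and 3.56 and was called present in 2 wild-type lines.

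Cdkn2a, the INK4 and ARF locus that is usually silent in early embryonic cells, lay close to background. On its single probe set (1450140_a_at) the wild-type lines gave 3.83, 3.64 and 3.88, of which lines 3.2 and 3.3 were called present, and the heterozygous lines gave 4.49 (present) and 3.76. The null lines gave 3.61, 3.66 and 3.64, and none was called present. The difference of −0.15 from wild-type (95% confidence interval −0.55 to 0.26, limma adjusted p = 0.793) is therefore not given as a fold. The null lines lay below both heterozygous lines, with a difference of −0.49 (limma adjusted p = 0.319), which was −0.12 without heterozygous line 5 and −0.85 without line 3.1.

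**Figure D4:**
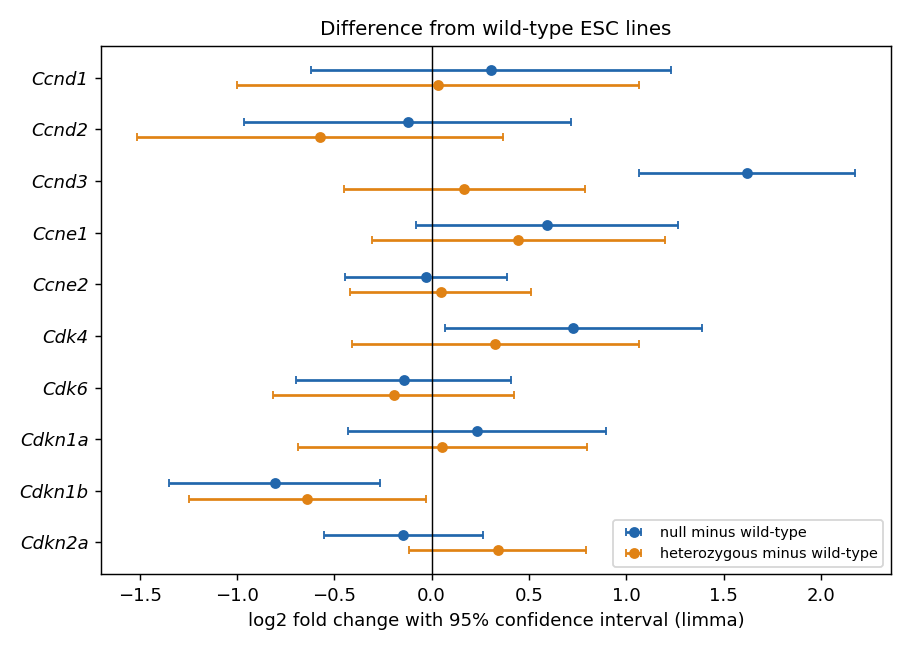
Log2 fold change (horizontal axis) of each member in null and in heterozygous ESCs relative to wild-type, with 95% confidence intervals from limma. The null interval of Ccnd3 spans 1.07 to 2.17 and its heterozygous interval spans 0, whereas both intervals of Cdkn1b lie below 0.

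Heterozygous ESCs were then compared with wild-type ESCs. No member passed limma, as did 0.0% of all genes. At an unadjusted p under 0.05 there were 701 genes, or 3.85%, with Cdkn1b the only member among them. In 1 of 10 members the lines did not overlap, against 17.3% of all genes. That member was Cdkn1b, at −0.64 (95% confidence interval −1.24 to −0.03, unadjusted p = 0.0415, adjusted p = 0.997, limma). Ccnd3 differed by 0.17 (95% confidence interval −0.45 to 0.79, limma adjusted p = 0.997). Line 5 exceeded line 3.1 in Ccnd1, Ccnd2, Ccnd3, Ccne1, Ccne2, Cdk4 and Cdkn2a and was below it in Cdk6, Cdkn1a and Cdkn1b.

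Between null and heterozygous ESCs no member passed either, again with 0.0% of all genes passing. At an unadjusted p under 0.05 there were 2512 genes, or 13.8%, with Ccnd3 and Cdkn2a among them. Ccnd3 was 1.45 higher in null ESCs (standard error 0.27, 95% confidence interval 0.83 to 2.07, limma adjusted p = 0.0716) and was the 1 member past 2-fold, against 2.42% of all genes. Lines did not overlap in 2 of 10 members, Ccnd3 and Cdkn2a, against 27.9% of all genes. The Cdkn1b difference was −0.17 (95% confidence interval −0.78 to 0.44, limma adjusted p = 0.861). These comparisons share lines with the first and are not independent of it.

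Other regulators of the G1 to S transition were read from a list. Of 26 such genes, none passed limma for null against wild-type ESCs, where 1.13% of all genes passed. At an unadjusted p under 0.05 there were 3 of 26, against 16.4% of all genes. Of the list, 14 means were higher and 12 lower, and the median was 0.05. The lines did not overlap in 5 of 26, against 22.4% of all genes. Closest to the threshold were Cks1b, a kinase subunit that helps degrade p27 (11.63 ± 0.06 in wild-type and 11.20 ± 0.06 in null ESCs, SD, n = 3, −0.43, limma adjusted p = 0.0686), Cdkn2d, the INK4 inhibitor p19 (0.72, 0.146), and Cdk7, the kinase that activates other CDKs (0.43, 0.183). E2f2 was called present in no line.

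Among E2F target genes, which serve DNA replication, all 13 measured means were higher in null than in wild-type ESCs, against 46.8% of all genes, with a median of 0.43. The list was chosen with earlier results of these data known, so this count is no independent support. Detected in all 8 lines were 9 of the 13, while Tyms was detected in no line, Tk1 in 2, Cdc45 in 5 and Cdca7 in 6. Only Cdc45, a part of the replicative helicase, rose, from 4.96 ± 0.22 to 5.83 ± 0.13 (SD, n = 3), by 0.87 (standard error 0.15, limma adjusted p = 0.0467). Of all genes, 1.13% passed. The helicase subunits Mcm3 (0.79, 0.0970) and Mcm5 (0.43, 0.204) followed without passing. Averaged over the 13 genes, the average was 8.03, 7.45 and 8.11 in wild-type, 8.28 and 7.57 in heterozygous, and 8.41, 8.21 and 8.37 in null lines. The low averages of lines 3.2 and 3.1 came with their low shares of present calls, and heterozygous line 5 exceeded null line 3.34. The highest average, in null line 7, came with the smallest 3′ minus 5′ difference (2.68). With that difference as a covariate Cdc45 differed by 0.65 (limma adjusted p = 1.00), and its part in the higher means was not tested.

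Of 16 measured p53 target genes, 1 rose and 15 did not pass, where 1.13% of all genes passed. Of the list, 9 means were higher and 7 lower, against 46.8% higher among all genes. The median was 0.14, and −0.01 over all genes. Detected in all 8 lines were 12 of the 16, while Tnfrsf10b was detected in no line, Plk2 in 1 and Bbc3 in 2. Zmat3, an RNA-binding protein induced by p53, rose from 7.61 ± 0.11 to 8.23 ± 0.02 (SD, n = 3), by 0.63 (standard error 0.11, limma adjusted p = 0.0467), and by 0.60 (1.00) with the 3′ minus 5′ covariate. Gadd45a, a stress sensor, differed by 0.56 (0.0895) and Ei24 by 0.77 (0.120). Averaged over the 16 genes, null line 3.34, at 6.74, lay near the lowest wild-type line at 6.72, and null lines 7 and 3.38, at 7.27 and 7.20, lay above the highest at 7.17.

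**Figure D5:**
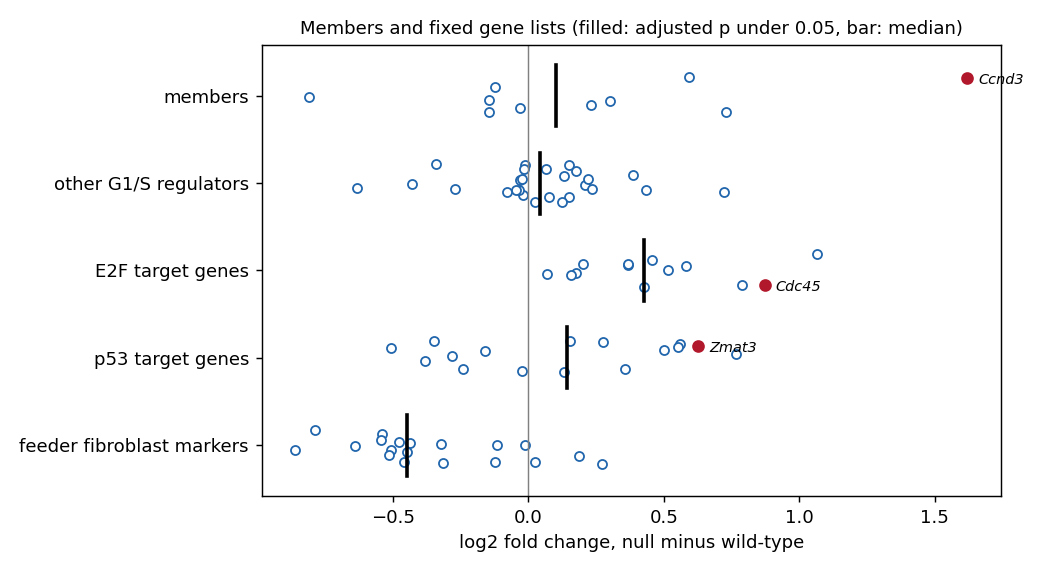
Log2 fold change of null relative to wild-type ESCs (horizontal axis) for each member and of each gene in 4 lists (rows), with the median as a bar and filled points for an adjusted p under 0.05 from limma. Ccnd3 (1.62), Cdc45 (0.87) and Zmat3 (0.63) are filled, and all E2F target genes lie right of 0.

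Fibroblast feeders also express D-type cyclins and CDK inhibitors, so feeder markers were read beside the members. Of 19 measured markers, 8 were called present in all 8 lines and none was called present in no line. In null ESCs 16 had a lower mean than in wild-type ESCs (median −0.45), against 9672 of 18193 genes. None passed limma, against 1.13% of all genes, and 5 had an unadjusted p under 0.05, against 16.4% of all genes. The 3 closest to the threshold were Mmp2 (−0.86, limma adjusted p = 0.160), Col5a1 (−0.54, 0.166) and Vim (−0.64, 0.194). The log2 values summed over the markers were 108.3 to 124.2 in wild-type, 118.8 to 125.3 in heterozygous and 108.2 to 112.9 in null ESCs. The lowest wild-type sum, that of line 3.3, lay inside the null range. The part of feeders in the Ccnd3 and Cdkn1b differences was not tested.

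The genes whose pattern over the 8 arrays came closest to that of Ccnd3 were Ppp1ca, Dhx16, Lap3, Pop5 and Lsm2. Their root mean square difference from the Ccnd3 profile, each gene centred on its mean, was 0.10 to 0.20 on the log2 scale among 7975 genes detected in every line of a genotype. Ppp1ca, a catalytic subunit of protein phosphatase 1, went from 7.69 ± 0.40 in wild-type to 9.12 ± 0.32 in null ESCs (SD, n = 3). Nearest to Cdkn1a were Trmt10c, Ccnt1, Gkap1, Mob1b and Rbsn, at 0.11 to 0.19. Of these, Ccnt1 had 7.59 ± 0.45 in wild-type and 7.73 ± 0.45 in null ESCs (SD, n = 3). Both sets were picked by likeness over these same arrays. That they follow Ccnd3 or Cdkn1a is therefore given by the choice and is no separate result.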

How the data were processed

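Total RNA of 8 mouse ESC lines, 1 array for each, was measured on Affymetrix mouse genome arrays. The log2 values that the authors deposited were RMA-normalized over all arrays and ran from 2.28 to 14.39. The study's methods and the submitters' processing notes name, with versions not given in the sources used here, RMA and limma. The authors deposited in addition, for every probe set, the array software's linear signal value with its detection p-value and call. Genotypes came from the sample labels, and each column of log2 values matched the signal of its own array best. The number of arrays limits the precision.

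Of 45101 probe sets, 64 controls were left out. The platform annotation gave 1 gene for 34945, several for 932 and no listed gene for 9160 probe sets, and 34741 were matched by Entrez identifier to RefSeq genes with no symbol changed. For each of 18193 genes the probe set of highest mean was used. A mean for each genotype was fitted to all 8 arrays with limma 3.58.1 (lmFit, eBayes) in R 4.3.3, adjusted by Benjamini-Hochberg over all genes, and a gene was called at an adjusted p under 0.05. The fit was checked on simulated data with independent noise and no RNA-quality difference between genotypes, so this check does not bear on RNA quality. A gene was detected in a line where any of its probe sets was called present, and no fold is given against a genotype that did not detect it. The 3′ minus 5′ difference averages the control probe sets of Gapdh and of beta-actin. Promoters came from a RefSeq table (GRCm38.p6). Python 3.11.15, numpy 2.4.6, pandas 2.3.3 and matplotlib 3.10.9 were also used.

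The members and lists (other G1 to S regulators, E2F targets, p53 targets, and ESC, feeder fibroblast, endoderm and trophectoderm markers) were chosen with earlier results of these data known. Named genes were all members, Zfp281, the genes of each list that passed for null against wild-type ESCs and otherwise the 3 with the smallest adjusted p, which are named beside a gene that passed too, and the 5 genes nearest in pattern to Ccnd3 and to Cdkn1a. Alternatives were the mean of a gene's probe sets, every probe set as a feature, detected genes only, quantile normalization, the signal values (pseudocount 16), a trended robust variance, a covariate for the 3′ minus 5′ difference, only the genotypes compared, and leaving out arrays. For the 3′ minus 5′ difference, Gapdh alone and beta-actin alone were added after seeing the data. Also added then was a fit with the litter as a replicate block over the 4 arrays of the 2 null and wild-type pairs that the study's supplement gives as from the same litters, beside the same 4 arrays without it. Deviations from the genotype means correlated by 0.097 (lines 7 and 3) and 0.038 (lines 3.38 and 3.3) across genes, which are not independent.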

Additional observations from a re-analysis of the deposited data

How the results depend on the processing

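With 1 member (Ccnd3) called for null against wild-type ESCs, the count was 0 with the mean of probe sets, the signal values, the 3′ minus 5′ covariate, and without the 2 arrays lowest in present calls (lines 3.2 and 3.1). Left out singly, lines gave 0 to 1, with 0 without null line 7, wild-type line 3 or wild-type line 3.2. For null against heterozygous ESCs the count of 0 became 1 (Ccnd3) with detected genes only, and lay between 0 and 1 with lines left out (1 without wild-type line 3.2). For heterozygous against wild-type ESCs it was 0 under every alternative run.

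Against wild-type, null ESCs changed sign in Ccnd1 (−0.53) and Cdk4 (−0.19) with the covariate, in Cdkn1a (−0.11) with the signal values, and in Ccne2 (0.018) and Cdk6 (0.029) without the 2 arrays. Leaving out lines, Ccnd2 ran from −0.50 to 0.15, Ccne2 from −0.18 to 0.075 and Cdk6 from −0.33 to 0.098. Ccnd3 in heterozygous ESCs was −0.050 with the signal values and −0.025 to 0.38 with lines left out. Cdkn1b between null and heterozygous ESCs was 0.35 with the signal values, 0.45 with the covariate and −0.39 to 0.11 with lines left out. None of these passed the test in the first place, and the cause was not tested. Ccnd3 in null against wild-type ESCs kept its direction under every alternative run, from 0.54 to 1.83.

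Of all genes, 206 were called for null against wild-type ESCs, but 129 with every probe set as a feature, 420 of the detected genes, 4 with the signal values, 0 with the covariate (462 at an unadjusted p under 0.05), 5 without the 2 arrays and 2 to 208 with lines left out. For null against heterozygous ESCs 0 became 20 with the mean of probe sets, 1 with every probe set, 155 of the detected genes, 43 with the trended variance, 96 with the 2 genotypes only and 0 to 346 with lines left out. The 3′ minus 5′ difference between null and wild-type ESCs, −1.31, was −1.004 to −1.52 with lines left out, −1.14 from Gapdh alone and −1.49 from beta-actin alone. Over the 4 arrays of the litter pairs, 0 members were called with the litter as a replicate block (Ccnd3 1.64, limma adjusted p = 0.0728) and 0 without it (0.0549), Ccne2 changed sign (0.12 in both), 178 and 198 genes of all were called, and no other member's call changed. Cdk6, Cdkn2a and Ccne2 lay near background, where small changes could not be measured.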

Other observations

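Markers of lineages that ESC cultures can give rise to were read as values only. Of 12 endoderm markers, 11 had a lower mean in null than in wild-type ESCs (median −0.32), against 9672 of 18193 genes. None passed limma, against 1.13% of all genes, and 0 had an unadjusted p under 0.05, against 16.4% of all genes. The endoderm markers with the smallest adjusted p were Gata4 (−0.47, limma adjusted p = 0.344), Col4a1 (−1.21, 0.366) and Sox17 (−0.98, 0.385). For Gata4 and Sox17 the study reports the other direction, derepression in null ESCs, by quantitative PCR. Gata4 was detected in 3 lines, Hnf4a in 2 and Afp in 1, and Foxa2 was called present in no line. Of 10 trophectoderm markers, 7 means were lower (median −0.20) and none passed, against the same shares of all genes. At an unadjusted p under 0.05 there were 2 of 10, against 16.4% of all genes. Tfap2c differed by −0.94 (limma adjusted p = 0.152), Krt8 by −1.76 (0.259) and Eomes by −0.26 (0.557), and the defining markers Cdx2, Elf5 and Gata3 were called present in no line.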
